A study of Mus musculus with 2 samples.

Results

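Cycling immune cells were chosen from 2 droplet single-cell libraries of mouse prostate by their transcripts. A cell was taken when Mki67, Top2a, Birc5 and Ube2c together gave at least 5 UMIs (unique molecular identifiers, 1 per captured transcript) and Ptprc, which encodes the leukocyte surface protein CD45, gave at least 1. Of 13977 cells kept after filtering, 787 met the rule, 308 of 6209 in the library from normal tissue next to the tumour and 479 of 7768 in the tumour library. The tissue had been broken down by a 45 min collagenase step (1 mg/ml) and by 2.5% trypsin, and 1 channel per tissue took its sorted CD45+ and CD45- cells, so the ratio of immune to other cells was set by the sorting. The labels give neither strain, genotype nor age, do not say how the tumour arose, and name 1 sample per tissue, so the number of animals is not known. With 1 library per tissue there is no replicate, no test was made, and all intervals (95%) cover counting error only.

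The cells that divide in a tissue pass through DNA synthesis in S phase and then mitosis, and each stage has its own genes. Origin licensing factors and enzymes of nucleotide supply serve S phase, while condensins, kinetochore proteins and spindle motors serve mitosis. Most of the mitotic genes are silent in resting leukocytes and are switched on shortly before division, which is why a few of them are used to mark cycling cells. T cells divide after contact with antigen, macrophages of a tissue can renew themselves by division, and B cells divide before they become plasma cells.

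The 4 genes of the rule act late in the cycle. Mki67 encodes the Ki-67 protein that coats mitotic chromosomes, Top2a the topoisomerase that untangles replicated DNA, Birc5 the survivin subunit of the chromosomal passenger complex, and Ube2c the ubiquitin-conjugating enzyme that serves the anaphase-promoting complex. Mki67 was found in 91.6% of the cycling cells of the normal adjacent library and 95.6% of those of the tumour, at 174 and 242 CPM (the UMIs of the gene over the summed UMIs of these cells, scaled to a total of 1000000). Top2a was found in 91.9% and 90.6%, at 189 and 239.8 CPM. Birc5 was found in 80.8% and 82.9%, at 115 and 148 CPM, and Ube2c in 63.6% and 67.6%, at 109.96 and 147 CPM. These values chose the cells and are given as a description. Mki67 and Top2a were found in most members, and Ube2c was the gene found least often.

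The stretch of 250 bases before the start site of each rule gene shows what 3 of the 4 share. Promoters of late cell cycle genes are known to hold the cell cycle genes homology region (CHR), searched here as TTTGAA or TTCGAA, beside CCAAT boxes, and promoters of S phase genes an E2F site, searched here as TTTGGCG or TTTCCCG. All were searched on both strands, so a CHR also reads TTCAAA, and a CCAAT box ATTGG. Sequences are from RefSeq (mouse, GRCm38.p6), 5′ to 3′ on the gene's strand, with every match in capitals. Mki67 lies at chr7:135716380-135716629 on the minus strand, Top2a at chr11:99024190-99024439 on the minus strand, Ube2c at chr2:164769679-164769928 on the plus strand and Birc5 at chr11:117848987-117849236 on the plus strand.
Mki67: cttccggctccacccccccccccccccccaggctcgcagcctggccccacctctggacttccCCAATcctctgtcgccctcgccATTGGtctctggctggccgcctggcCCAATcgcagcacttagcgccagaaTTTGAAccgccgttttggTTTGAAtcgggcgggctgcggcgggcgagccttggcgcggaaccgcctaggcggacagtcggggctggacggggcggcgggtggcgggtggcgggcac
Top2a: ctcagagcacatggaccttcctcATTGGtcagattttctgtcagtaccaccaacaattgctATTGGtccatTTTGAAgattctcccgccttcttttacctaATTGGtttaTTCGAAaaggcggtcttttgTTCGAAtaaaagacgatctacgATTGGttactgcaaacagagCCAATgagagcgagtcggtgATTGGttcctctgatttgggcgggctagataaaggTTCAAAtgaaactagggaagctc
Ube2c: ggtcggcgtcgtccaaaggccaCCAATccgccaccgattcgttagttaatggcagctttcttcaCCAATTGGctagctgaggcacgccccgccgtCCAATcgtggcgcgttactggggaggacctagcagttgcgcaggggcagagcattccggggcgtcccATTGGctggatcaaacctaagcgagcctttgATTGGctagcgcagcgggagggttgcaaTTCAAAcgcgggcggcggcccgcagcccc
Birc5: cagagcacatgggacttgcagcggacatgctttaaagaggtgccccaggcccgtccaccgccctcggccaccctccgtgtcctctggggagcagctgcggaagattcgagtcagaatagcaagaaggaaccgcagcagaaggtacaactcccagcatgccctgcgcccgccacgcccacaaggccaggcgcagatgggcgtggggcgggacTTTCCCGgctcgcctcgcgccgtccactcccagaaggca

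Mki67, Top2a and Ube2c each held both a CHR and CCAAT boxes in this window, and 1 pair of CCAAT matches of Ube2c overlaps. In Mki67 the 2 CHR matches began 116 and 98 bases before the start site, and in Ube2c the only match began 29 bases before it. Birc5 held neither, and had 1 E2F match that began 39 bases before its start. Both a CHR and a CCAAT box were present in 6.21% of the promoters of all 27025 genes, in 8 of 27 matched genes of the mitotic lists used below (29.6%) and in 3 of 20 matched genes of the licensing and DNA synthesis lists (15%). With the 50 bases after the start site included the shares were 7.70% of all genes, 17 of 27 mitotic genes and 3 of 20 licensing and synthesis genes. An E2F match was present in the shorter window in 4.02% of all genes, 3 of 27 mitotic genes and 6 of 20 licensing and synthesis genes. A match is a description of the letters in that window and not a site shown to be bound.

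Both libraries list 32285 mouse genes and hold 77855775 and 92188538 UMIs over 6553 and 8237 barcodes, in the order normal adjacent and tumour used throughout. After removal of barcodes with under 200 genes or over 20% mitochondrial UMIs (344 and 469), 5103 and 6329 cells had a Ptprc UMI. The libraries shared 18 barcode sequences, 16 of them among kept cells, and no doublet caller was run; droplets with more than 1 cell were followed through cells that carry markers of several lineages.

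Cycling cells made up 6.04% (5.40% to 6.72%) of Ptprc cells in the normal adjacent library and 7.57% (6.93% to 8.25%) in the tumour. The tumour share was 1.53 percentage points higher (0.603 to 2.45). A further 21.1% and 22.0% of Ptprc cells had 1 to 4 UMIs of the rule genes and were kept apart, and 3720 and 4456 cells with none served as the non-cycling cells. At the threshold itself, 70 and 71 cells had 4 rule UMIs, just outside, and 47 and 53 had 5, just inside. With thresholds of 3 and 10 UMIs the difference was 1.10 points (-0.0307 to 2.22) and 1.24 points (0.457 to 2.01), the first with an interval that included 0.

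The cycling cells were far deeper than the rest. Their median depth was 34982.5 UMIs in the normal adjacent library and 25371 in the tumour, against 5875.5 and 5519.5 in non-cycling cells, and the deepest held 154184 and 126159. They had medians of 22 and 16 Ptprc UMIs, against 4 and 4 in non-cycling cells. Among Ptprc cells under 10000 UMIs, 0.559% and 0.815% were cycling, and among those over 40000 UMIs the shares were 39.5% and 38.9%. A fixed number of rule UMIs is easier to reach in a deep cell, and how much of the rise with depth this makes was not tested.

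**Figure D1:**
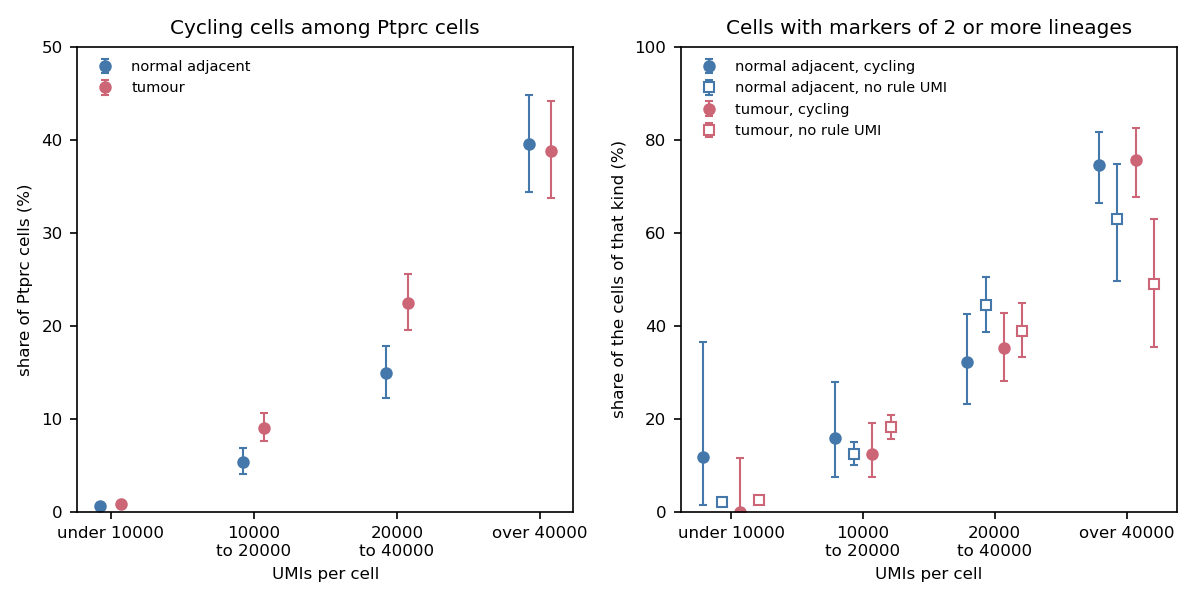
Left, share of Ptprc cells that were cycling (% of cells) by UMIs per cell in each library. Right, share of cycling cells (filled circles) and of cells with no rule UMI (open squares) that carried markers of 2 or more lineages; bars are exact 95% binomial intervals. The cycling share rose from 0.559% and 0.815% in the shallowest cells to 39.5% and 38.9% in the deepest, and the share with 2 or more lineages rose with depth in both kinds of cell.

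The lineages were read from 6 marker rules. Cd8a with Cd3e, at least 1 UMI of each, stands for CD8 T cells. C1qa, C1qb and C1qc, the complement subunits made by tissue macrophages, had to reach 0.5% of a cell's UMIs. Cd209a with Flt3 stands for a class of dendritic cells, Cd79a, a part of the B cell receptor, for B lineage cells, Trdc, the constant region of the T cell receptor delta chain, for gamma delta T cells, and Prss2, a trypsinogen gene, was taken up because T cells of the tumour library carried it.

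C1q and Cd8a with Cd3e were the most frequent markers of cycling cells. C1q marked 170 of 308 cycling cells in the normal adjacent library (55.2%) and 271 of 479 in the tumour (56.6%), against 18% and 23.3% of non-cycling cells. Cd8a with Cd3e marked 166 (53.9%, 48.2% to 59.6%) and 204 (42.6%, 38.1% to 47.2%), against 15.2% and 11.7%. These contrasts depended on depth. Between 20000 and 40000 UMIs C1q marked 47.9% and 55.7% of cycling and 48.6% and 62.5% of non-cycling cells. Over 40000 UMIs it marked 70.3% and 77.9% against 54.8% and 45.5%. Cd8a with Cd3e marked 38.5% and 40.3% against 43.4% and 27.4% in the first range. In the second it marked 77.5% and 66.9% against 56.5% and 40%. The second range has no upper limit and held 138 and 136 cycling and 62 and 55 non-cycling cells. Its cycling cells were the deeper ones, with medians of 63037 and 59415 against 48611 and 47948 UMIs. Between 10000 and 20000 UMIs Cd8a with Cd3e marked 31.6% and 27.7% of cycling against 15.4% and 16.6% of non-cycling cells. There C1q marked 35.1% and 39.4% against 31.99% and 45.7%, so the libraries went opposite ways. The cycling cells were deeper there too, with medians of 15449 and 16009 against 13312 and 13466 UMIs. Under 10000 UMIs, with 17 and 30 cycling cells, both markers were more frequent in cycling cells of each library. The difference of Cd8a with Cd3e, tumour minus normal adjacent, was -11.3 points (-18.3 to -4.16). With every cell thinned to 5000 UMIs and cycling cells chosen anew at 3 rule UMIs it was 5.21 points (-2.48 to 12.2), and among the cycling cells with at most 1 lineage it was -3.33 points (-11.6 to 4.46). When the same cycling cells were thinned to 5000 UMIs without a new choice, the shares were 21.2% and 19.2%, so the tumour stayed the lower one. The cycling cells of the tumour library were also the shallower ones, and the part of depth in the result was not tested beyond these values.

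The other markers were found in fewer cycling cells. Trdc marked 79 (25.6%) and 91 (19.0%), a difference of -6.65 points (-12.8 to -0.748). The interval of the Trdc difference included 0 with thresholds of 3 UMIs (-3.99 points, -8.80 to 0.720) and 10 UMIs (-6.24 points, -13.5 to 0.704), after thinning with cycling cells chosen anew (-3.35 points, -10.1 to 2.54) and among cycling cells with at most 1 lineage (-3.82 points, -9.61 to 0.95). Cd209a with Flt3 marked 45 (14.6%) and 53 (11.1%), and Cd79a 33 (10.7%) and 46 (9.60%). Prss2 marked 3 cells of the normal adjacent library (0.974%) and 95 of the tumour (19.8%), 18.9 points more (15.1 to 22.7). Of these, the 2 libraries stood apart most in Prss2, which 6.80% of non-cycling tumour cells carried too. Prss2 was taken up because T cells of the tumour library carried it, so its place is a description only.

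Free RNA in the droplets gives single UMIs of genes that a cell does not express, and deep droplets gather more of it. In non-cycling cells with at least 10 UMIs of the B cell genes Cd79a, Cd79b and Ms4a1 (median depth 6359 and 6928 UMIs), Cd8a with Cd3e was present in 9.75% and 6.82%, C1q in 7.22% and 7.39%, Trdc in 5.78% and 5.11%, and Prss2 in 0.361% and 6.82%. In non-cycling cells with at least 5 UMIs of Cd3d, Cd3e and Cd3g (median depth 7049 and 6617), C1q was present in 17.7% and 22.6% and Cd79a in 4.95% and 3.0%. When the 302 and 475 cycling cells of at least 5000 UMIs were thinned to that number, C1q still marked 54.6% and 55.8%, Cd8a with Cd3e 21.2% and 19.2%, Trdc 14.6% and 9.47%, Cd79a 4.97% and 4.84%, Cd209a with Flt3 1.99% and 1.05%, and Prss2 0 cells and 10.5%. Non-cycling cells of at least 5000 UMIs, thinned in the same way, gave C1q in 24.1% and 36.0% and Cd8a with Cd3e in 15.1% and 11.6%. At that depth the T cells gave Cd79a in 4.62% and 2.82%, so the thinned Cd79a share of cycling cells lay near what cells of another lineage gave. The same T cells gave C1q in 22.2% and 32.6% (250 of 1125 and 358 of 1099), a background that differed between the libraries. Before thinning the counts were 257 of 1456 and 361 of 1598. Cells under 5000 UMIs were left out of the thinned share, while the count of marked cells hardly changed. The part of this in the higher share after thinning was not tested. The B cells at that depth gave C1q in 12% and 12.5%, Cd8a with Cd3e in 7.43% and 0.893%, Trdc in 5.71% and 6.25% and Prss2 in 0.571% and 5.36%.

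**Figure D2:**
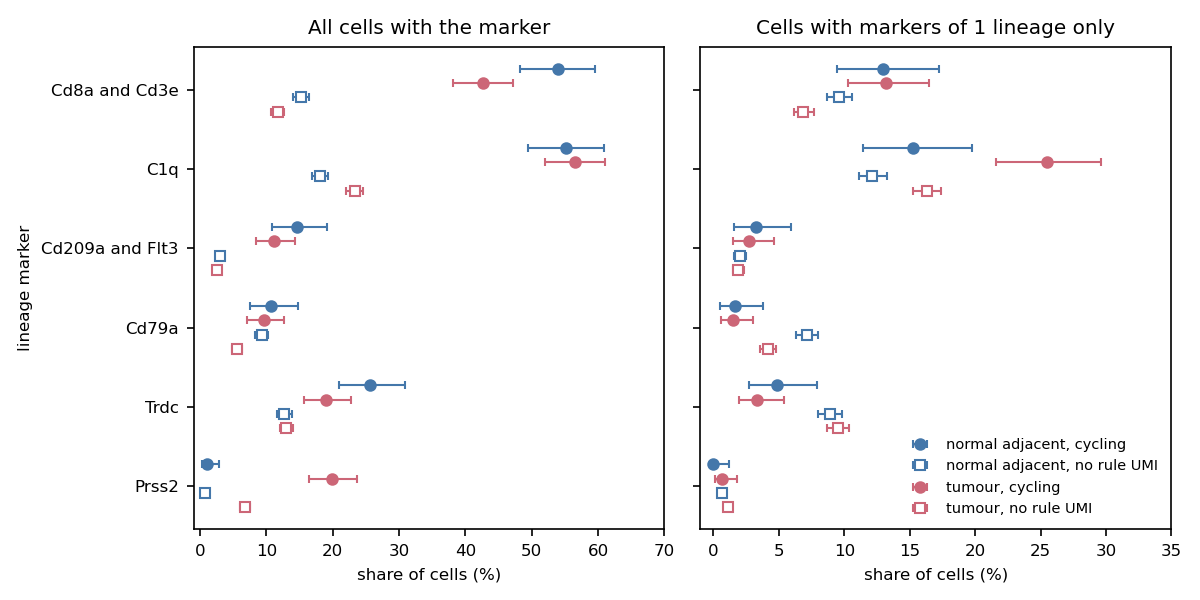
Share of cycling cells (filled circles) and of cells with no rule UMI (open squares) with each lineage marker, in % of cells, for all cells with the marker (left) and for cells with markers of that lineage only (right). Bars are exact 95% binomial intervals. C1q and Cd8a with Cd3e each marked over 40% of cycling cells in both libraries, and 13% to 25.5% of all cycling cells carried 1 of them and no other lineage.

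Many cycling cells carried more than 1 lineage. Markers of 2 or more lineages, with Prss2 beside Cd8a and Cd3e not counted as a second one, were present in 145 cycling cells of the normal adjacent library (47.1%) and 182 of the tumour (38.0%), against 8.36% and 8.62% of non-cycling cells. Their median depth was 55410 and 44587 UMIs, and that of cycling cells with 1 lineage was 23670 and 20304. Between 20000 and 40000 UMIs the share with 2 or more lineages was 32.3% and 35.2% in cycling and 44.5% and 38.9% in non-cycling cells. Over 40000 UMIs it was 74.6% and 75.7% in cycling and 62.9% and 49.1% in non-cycling cells. The cycling cells of that range were also deeper, with medians of 63037 and 59415 against 48611 and 47948 UMIs. The cycling share was thus the lower one in the first of these ranges and the higher one in the second. With cells thinned to 5000 UMIs it was the higher one too, at 22.2% and 17.7% of cycling against 8.15% and 9.83% of non-cycling cells. When cycling cells were chosen anew at 3 rule UMIs after thinning, the shares were 9.88% and 13.2% of cycling against 11.6% and 13.5% of non-cycling cells, so the direction depended on how cycling cells were chosen.

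The most frequent pair was Cd8a and Cd3e with C1q. It was found in 106 cycling cells of the normal adjacent library and 116 of the tumour, which is 63.9% and 56.9% of the cycling cells with Cd8a and Cd3e and 62.4% and 42.8% of those with C1q. In non-cycling cells 25.9% and 32.9% of those with Cd8a and Cd3e also carried C1q. The paired cells had median depths of 57702.5 and 53084.5 UMIs, against 28972.5 and 20029 in cycling cells with Cd8a and Cd3e alone and 23670 and 20707.5 in those with C1q alone.

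Paired cells held T cell transcripts below the level of T cells and C1q transcripts below the level of macrophages. Cd3e, a subunit of the T cell receptor complex, was at 223 and 164 CPM in paired cells and 447 and 355 CPM in cells with Cd8a and Cd3e alone. Cd8a was at 125 and 106 against 299 and 373 CPM. C1qa was at 3403 and 3611 CPM in paired cells and 4515 and 5256 CPM in those with C1q alone. These 3 genes define the kinds of cell compared, so their order is a description. Of genes that the marker rules do not use, Trac, the constant region of the T cell receptor alpha chain, was at 155 and 155 CPM in paired cells, 417 and 452 in Cd8a and Cd3e cells and 91.2 and 64.4 in C1q cells. Csf1r, the receptor for the macrophage growth factor CSF1, was at 348 and 422 CPM in paired cells, 426 and 554 in C1q cells and 115 and 129 in Cd8a and Cd3e cells. Whether these droplets held 1 cell or more was not tested.

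**Figure D3:**
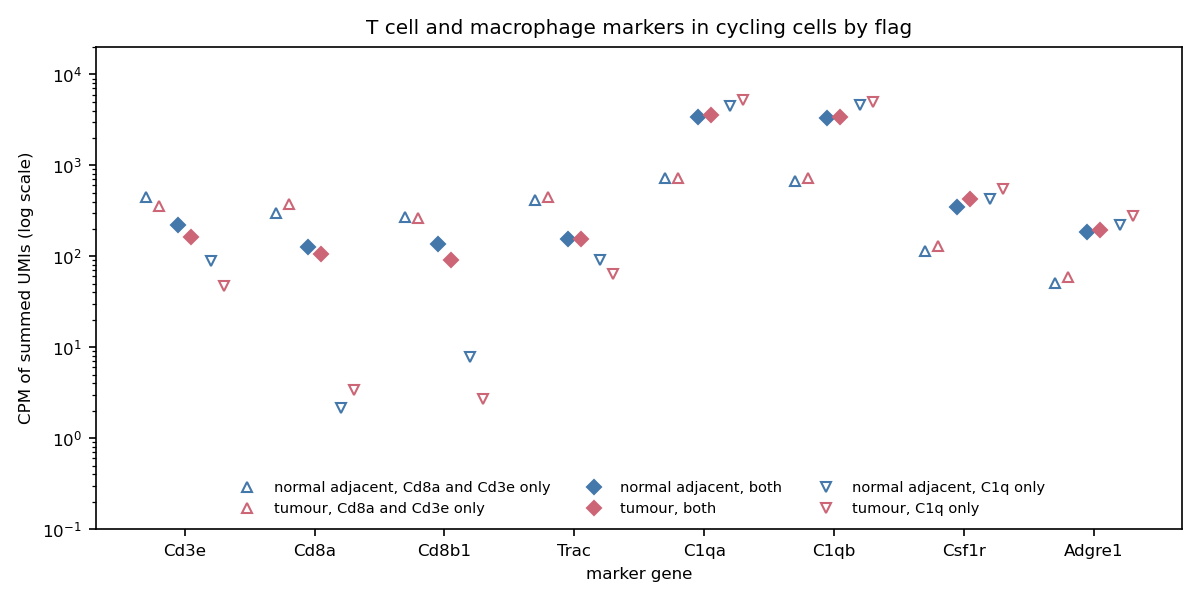
Level of T cell genes (Cd3e, Cd8a, Cd8b1, Trac) and macrophage genes (C1qa, C1qb, Csf1r, Adgre1) in cycling cells with Cd8a and Cd3e only, with both markers, and with C1q only, as CPM of summed UMIs on a log scale. Each symbol is 1 library and 1 kind of cell, with no replicate. The cells with both markers (filled diamonds) lie between the other kinds for each gene shown; Cd3e, Cd8a, C1qa and C1qb define the kinds, and the other genes do not.

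Of all cycling cells, 40 of the normal adjacent library (13%) and 63 of the tumour (13.2%) carried Cd8a and Cd3e and no other lineage, a difference of 0.165 points (-4.86 to 4.85). C1q alone was carried by 47 (15.3%) and 122 (25.5%), 10.2 points more in the tumour (4.43 to 15.6), or 12.2 points more (3.07 to 20.8) as a share of the cycling cells with at most 1 lineage, while C1q alone among non-cycling cells was 12.2% and 16.3%. Cd209a with Flt3 alone was carried by 10 and 13 cells, Cd79a alone by 5 and 7, and Trdc alone by 15 and 16. Cycling cells of a single lineage were thus mostly cells with C1q or with Cd8a and Cd3e. Another 46 (14.9%) and 73 (15.2%) carried no lineage marker. Of these, 65.2% and 54.8% had at least 3 UMIs of 6 T cell genes and 58.7% and 60.3% at least 3 UMIs of 6 macrophage genes. Transcripts of several lineages were thus present among them, at median depths of 21311.5 and 19213 UMIs. The part of free RNA in these shares was not tested.

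The single-lineage cells were checked against marker lists. Cycling cells with Cd8a and Cd3e alone held 3439 and 3490 CPM of 6 T cell genes, against 5070 and 5195 in their non-cycling counterparts, and 1988 and 2092 against 1423 and 1205 CPM of 6 macrophage genes. Cycling C1q cells held 12462 and 14289 CPM of the macrophage genes against 15121 and 14753, and 727 and 435 CPM of the T cell genes against 402 and 400. The cells with Trdc alone held 2403 and 1516 CPM of 5 epithelial genes. Those with Cd79a alone held 7085 and 5451 CPM of plasma cell genes and 1421 and 3123 CPM of B cell genes. Transcripts of other lineages were therefore present in every single-lineage class, and their part in the gene values below was not tested.

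Cycling could also be read within each lineage. Of all Ptprc cells with Cd8a and Cd3e, 14.4% were cycling in the normal adjacent library and 17.7% in the tumour, a difference of 3.31 points (0.313 to 6.31), and among those of 1 lineage 7.25% and 12.2% were, a difference of 4.99 points (1.43 to 8.62). Cells with C1q were cycling in 13.7% and 14.3% (difference 0.609 points, -1.91 to 3.04), and those of 1 lineage in 7.13% and 10.8% (3.64 points, 0.853 to 6.23). The C1q difference was 2.15 points (0.00434 to 4.19) after thinning to 5000 UMIs with cycling cells chosen anew, and 1.73 points (-1.04 to 4.33) in cells of 1 lineage thinned in that way. With a threshold of 3 UMIs it was -0.0913 points (-3.02 to 2.77), and that of Cd8a with Cd3e 2.45 points (-1.04 to 5.94). Cd79a cells were cycling in 6.89% and 11.9% (5.00 points, 1.12 to 9.09), and those of 1 lineage in 1.62% and 3.04% (1.42 points, -1.21 to 4.66). With Trdc the shares were 10.8% and 10.0%, and with Cd209a and Flt3 19.6% and 18.3%, with intervals of the difference that included 0.

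**Figure D4:**
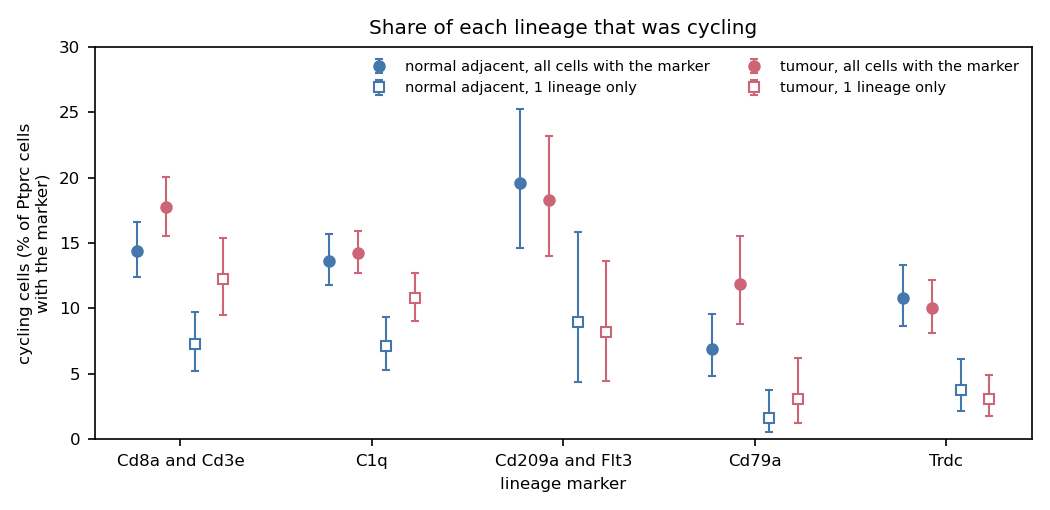
Share of Ptprc cells with each lineage marker that were cycling (% of cells), for all cells with the marker (filled circles) and for cells with that lineage only (open squares); bars are exact 95% binomial intervals. With 1 lineage only, the tumour values were 12.2% for Cd8a and Cd3e and 10.8% for C1q, and the normal adjacent values 7.25% and 7.13%.

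Prss2 marked a group of CD8 T cells in the tumour library, among both cycling and non-cycling cells. It was present in 86 of 204 cycling tumour cells with Cd8a and Cd3e (42.2%, 35.3% to 49.3%) and in 208 of 520 non-cycling ones (40.0%, 35.8% to 44.4%). In the normal adjacent library it was present in 2 of 166 cycling cells and 1 of 564 non-cycling cells. The cycling tumour cells held 880 UMIs of Prss2, and the cycling normal adjacent cells 2. In the tumour library its level was 98.8 CPM in cycling and 219 CPM in non-cycling cells with Cd8a and Cd3e. The tumour cells with Prss2 had median depths of 49621.5 UMIs in cycling and 10682.5 in non-cycling cells. The shares with at least 1 UMI therefore compare cells of unlike depth. In tumour cells of 1 lineage they were 18 of 63 cycling and 106 of 306 non-cycling cells. Trav4-4-dv10, a variable segment of the T cell receptor alpha chain, went with Prss2. In cycling tumour cells it was found in 63 of the 86 with Prss2 (73.3%, 62.6% to 82.2%) and in 3 of the 118 without (2.54%). In non-cycling tumour cells the counts were 133 of 208 (63.9%) and 2 of 312. It was found in 0 of 164 cycling normal adjacent cells without Prss2, which allows up to 2.22% of cells with a UMI of it and sets no limit on the cells that carry the segment. No Trbv segment reached 20 UMIs in these cells. Prss2 and Trav4-4-dv10 thus overlapped in cells of 1 library, whether or not they were cycling. Not every cell with Prss2 had a UMI of the segment. Cells of a library that share a receptor segment are not independent samples.

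Within each lineage, cycling cells were then described against non-cycling cells with the same marker. The ratio is that of CPM of summed UMIs, computed within each library. A gene counted as higher or lower when it differed at least 2-fold the same way in both libraries, with at least 50 UMIs over the 4 sets of cells. Since the rule genes chose the cells, the higher levels of the cell cycle lists come from the rule's own contrast. They describe the cells and support nothing. Of 11507 genes in all cells with Cd8a and Cd3e, 227 were higher (1.97%) and 153 lower (1.33%), and with cells of 2 or more lineages left out, 299 of 8853 were higher (3.38%) and 82 lower (0.926%). The gene values that follow are from cells of 1 lineage, 40 and 63 cycling cells with Cd8a and Cd3e, because cells of 2 or more lineages hold transcripts of several programmes.

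In cycling CD8 T cells the S phase genes were raised together. Of the licensing list, 9 of 11 measured genes were higher, with median log2 ratios of 2.25 and 2.17, and the medians over all genes were 0.02 and 0.02. In the DNA synthesis list 11 of 12 were higher, with medians of 2.37 and 2.32. Mcm5, a subunit of the replicative helicase, was at 107 against 12.3 CPM in the normal adjacent library and 111 against 18.3 CPM in the tumour, ratios of 8.67 (6.09 to 12.6) and 6.07 (4.36 to 8.59). Rrm2, the regulated subunit of ribonucleotide reductase, was at 148 against 6.17 CPM in the normal adjacent library and 165 against 5.18 CPM in the tumour, ratios of 23.9 (15.2 to 39.6) and 31.8 (18.3 to 60.6). The gene that did not reach 2-fold, Pcna, the sliding clamp of DNA polymerase, had ratios of 1.78 and 1.97, from a high level in non-cycling cells (163 and 171 CPM). Tyms, which makes thymidylate, had ratios of 7.13 and 11.8, and Tk1, thymidine kinase, of 13.3 and 13.2.

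Mitotic genes differed by more. In the condensation and kinetochore list 12 of 13 genes were higher (medians 3.73 and 3.96), and in the spindle and cytokinesis list 10 of 11 (3.87 and 3.83). Smc2, a condensin subunit, was at 179.7 against 18.5 CPM in the normal adjacent library and 209 against 22.3 CPM in the tumour, ratios of 9.71 (7.31 to 13.1) and 9.36 (7.03 to 12.7). Kif11, the motor that pushes spindle poles apart, was at 118 against 6.17 CPM in the normal adjacent library and 133 against 9.16 CPM in the tumour, ratios of 19.2 (12.1 to 31.9) and 14.5 (9.42 to 23.4). Cenpa, the histone of the centromere, stayed just under 2-fold with ratios of 1.84 and 1.97. The chromatin and tubulin list was higher in 7 of 7, led by Stmn1, which destabilises microtubules, with ratios of 22.0 (18.8 to 25.9) and 18.2 (15.3 to 21.8), and Tubb5, a tubulin, with 6.58 and 7.49.

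Cyclins and their kinases did not move as a block. 8 of 14 were higher (medians 1.70 and 1.45). Cdk1, the mitotic kinase, had ratios of 12.0 (7.65 to 19.6) and 22.7 (12.3 to 46.4). Ccnd2, the cyclin D that T cells use on leaving rest, was lower in cycling cells, at 145 against 292 CPM in the normal adjacent library and 138 against 257 CPM in the tumour, ratios of 0.497 and 0.536 that missed the 2-fold limit in the tumour. Ccnd3 had ratios of 1.12 and 0.896. Among genes of mitotic exit, Cks1b, a partner of cyclin-dependent kinases, had ratios of 17.3 and 13.4 and Pttg1, securin, of 0.630 and 0.671. Pttg1 was therefore below its level in non-cycling cells although it acts in mitosis. Of the inhibitors, Cdkn1b (p27) had ratios of 0.743 and 0.653 and Cdkn2c (p18) of 1.44 and 1.28.

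Outside the lists, the rule for named genes gave mostly further genes of replication and mitosis. Pclaf, a partner of PCNA, was at 387 against 4.41 CPM in the normal adjacent library and 489 against 4.78 CPM in the tumour, ratios of 87.9 (52.8 to 158) and 102 (58.2 to 199). Clspn, which signals stalled replication, had ratios of 21.7 and 16.0, and Asf1b, a histone chaperone, of 22.2 and 14.2. Hist1h1b, a linker histone made in S phase, was at 557 against 16.7 CPM in the normal adjacent library and 477 against 16.3 CPM in the tumour. Spc24, a kinetochore subunit, Cenpm, a centromere protein, Cdca3 and Hist1h2ae were the other higher ones. Lower outside the lists were Ifit1, an interferon-induced gene, with ratios of 0.153 and 0.431, Tcp11l2 with 0.255 and 0.448 and N4bp2l1 with 0.428 and 0.495.

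The effector genes of CD8 T cells lay lower in the cycling cells. All 11 cytotoxic genes measured had log2 ratios under 0 in both libraries, with medians of -0.91 and -0.97, and 2 of 11 were at least 2-fold lower in both. Ccl5, a chemokine of effector T cells, was at 3520.2 against 8811 CPM in the normal adjacent library and 2522 against 9199 CPM in the tumour, ratios of 0.400 (0.387 to 0.412) and 0.274 (0.265 to 0.284). Prf1, perforin, was at 24.0 against 62.3 CPM in the normal adjacent library and 21.3 against 49.8 CPM in the tumour, ratios of 0.385 (0.253 to 0.566) and 0.428 (0.283 to 0.633). Gzmb, a granzyme, was at 775 against 1121 CPM in the normal adjacent library and 835 against 1524 CPM in the tumour, and Nkg7, a protein of cytotoxic granules, had ratios of 0.531 and 0.580. Both stayed within 2-fold, and 1 cell held 29.0% of the Gzmb UMIs of the cycling normal adjacent cells. Ifng, interferon gamma, had ratios of 0.522 and 0.445 and Fasl of 0.412 and 0.509. T cell marker genes moved with them: the 6 T cell genes summed were lower in the same cells, as given above, and the macrophage genes higher. The cycling cells were the deeper ones, with medians of 28972.5 and 20029 UMIs against 6760 and 6413. The part of these differences in the result was not tested.

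Checkpoint and costimulation genes were spread about the same side. The inhibitory receptor list had medians of -0.57 and -0.54 with 0 of 8 higher and 0 of 8 lower in both libraries. Lag3 had ratios of 0.392 and 0.626, Pdcd1, which encodes PD-1, of 0.680 and 0.628, and Havcr2, which encodes TIM-3 and is also made by dendritic cells, of 1.52 and 2.10. The costimulation list had medians of -0.50 and -0.73. Cd27 had ratios of 0.516 and 0.450, Tnfrsf9 (4-1BB) of 0.602 and 0.611, and Cxcr6, a receptor of tissue T cells, of 0.639 and 0.422.

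MHC class II genes, which resting mouse T cells do not express, were all above 0 on the log2 scale, with medians of 0.82 and 0.69 and 1 of 8 at least 2-fold higher. H2-Ab1 was at 3756 against 2005 CPM in the normal adjacent library and 3433 against 2069.9 CPM in the tumour. Ciita, the regulator of these genes, had ratios of 3.02 (1.74 to 5.28) and 2.18 (1.38 to 3.48). Genes of type 1 dendritic cells lay higher in the same cells. Xcr1 had ratios of 3.19 and 2.51, with 51.9% and 41.9% of its UMIs in 1 cell of each library, Clec9a of 2.48 and 2.65 and Batf3 of 2.65 and 2.25. Such cells can carry Cd8a too, and no marker rule removed them here. Metabolic lists moved little: oxidative phosphorylation had medians of 0.20 and 0.37 and glycolysis of 0.24 and 0.38, with 0 genes past 2-fold, and the nucleotide and one-carbon list 0.68 and 0.74, with 1 of 9.

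**Figure D5:**
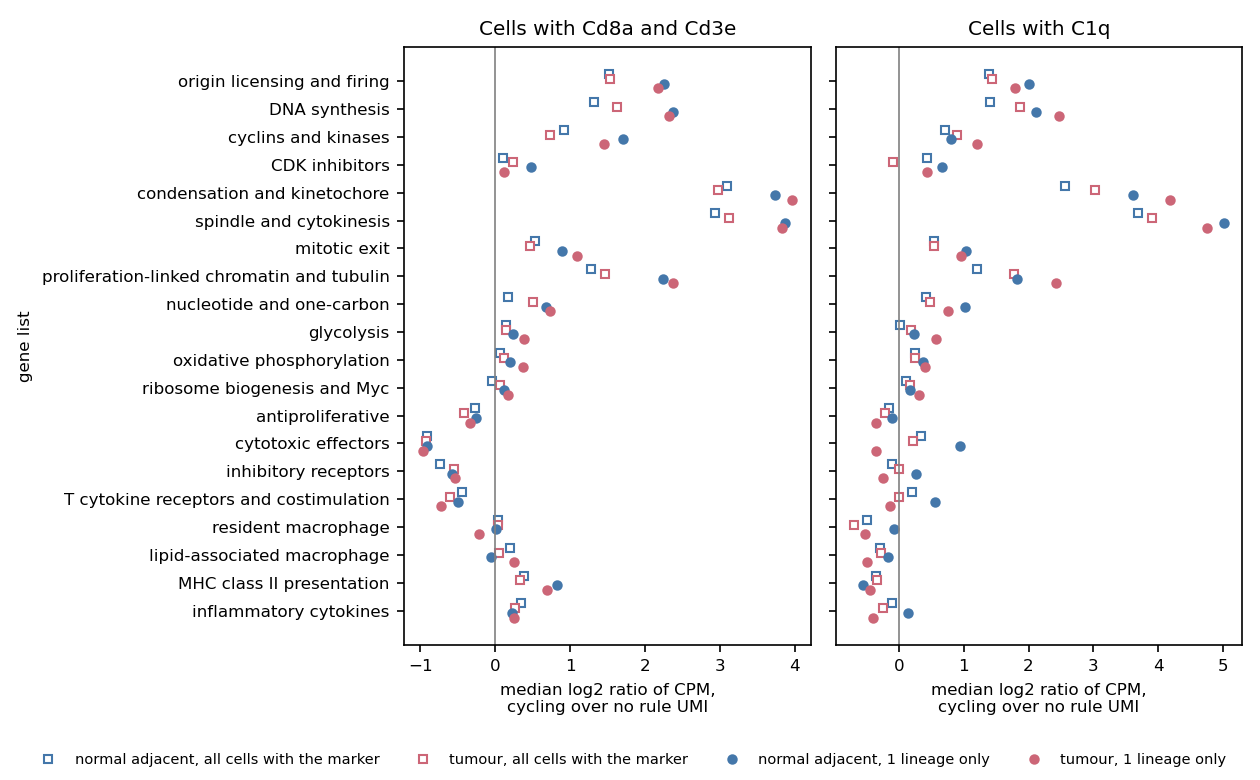
Median log2 ratio of CPM, cycling cells over cells with no rule UMI, for 20 gene lists in cells with Cd8a and Cd3e (left) and with C1q (right). Filled circles are cells of 1 lineage and open squares all cells with the marker; each symbol is 1 library, with no replicate. The S phase and mitotic lists lie on the right of 0 in both lineages, the cytotoxic list on the left in cells with Cd8a and Cd3e, and the MHC class II list on opposite sides.

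Cycling macrophages, cells with C1q, also had the cell cycle lists raised. Of 11775 genes in all C1q cells, 273 were higher (2.32%) and 37 lower (0.314%). In the 47 and 122 cycling cells with C1q alone 355 of 10133 were higher (3.5%) and 48 lower (0.474%), and the medians over all genes were 0.15 and 0.13. 10 of 11 licensing genes were higher (medians 2.01 and 1.79), 11 of 12 of DNA synthesis (2.11 and 2.47), 13 of 13 of condensation and the kinetochore (3.60 and 4.18) and 14 of 14 of the spindle (5.01 and 4.76). Mcm5 was at 83.4 against 12.5 CPM in the normal adjacent library and 69.5 against 14.1 CPM in the tumour. Tk1 was at 78.4 against 4.58 CPM in the normal adjacent library and 79.7 against 4.52 CPM in the tumour, ratios of 17.1 (10.8 to 28.4) and 17.6 (12.4 to 25.7). Cdk1 had ratios of 15.3 (9.47 to 25.9) and 15.1 (11.1 to 21.1), and Stmn1 of 11.4 (9.86 to 13.2) and 17.6 (15.7 to 19.7). Unlike in the T cells, Cenpa passed 2-fold with ratios of 2.35 and 2.36, though this difference between lineages was not tested. Cdkn2c had ratios of 3.50 (2.27 to 5.40) and 4.44 (3.33 to 5.95).

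Genes outside the lists in cycling macrophages were again those of the cycle. Pclaf was at 185 against 2.92 CPM in the normal adjacent library and 290.3 against 4.28 CPM in the tumour, ratios of 63.5 (37.2 to 118) and 67.9 (48.4 to 98.1), and Hist1h1b had ratios of 53.8 and 96.7. Racgap1, which places the cleavage furrow, had ratios of 15.3 and 27.1. Gmnn, geminin, which keeps origins from firing again, had ratios of 5.07 and 6.04. Cdca3, Spc24, Hmmr and Knl1 completed the higher genes, and no gene met the rule for lower ones.

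The genes of macrophage identity lay somewhat lower in cycling macrophages. The resident macrophage list had medians of -0.08 and -0.53 and the lipid-associated list of -0.17 and -0.49, with 0 genes of either past 2-fold in both libraries. Apoe, the lipid carrier, was at 15952 against 25250.4 CPM in the normal adjacent library and 15037 against 28543 CPM in the tumour, ratios of 0.632 (0.623 to 0.641) and 0.527 (0.521 to 0.532). Mrc1, the mannose receptor, was at 86.2 against 123 CPM in the normal adjacent library and 55.6 against 118 CPM in the tumour, ratios of 0.702 (0.572 to 0.855) and 0.470 (0.396 to 0.555). Cd63, a lysosomal protein, had ratios of 0.666 and 0.598, and Trem2, a lipid receptor, of 0.904 and 0.762. Cx3cr1, the fractalkine receptor, had ratios of 1.18 and 1.04 and so lay near its level in non-cycling macrophages.

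MHC class II genes had medians of -0.55 and -0.44, all 8 under 0 in both libraries, and H2-Ab1 was at 7309 against 11077 CPM in the normal adjacent library and 7743 against 10642 CPM in the tumour. Ratios were 0.609 and 0.679 for Cd74, the invariant chain. The nucleotide and one-carbon list was above 0 for all 10 genes in both libraries, with medians of 1.02 and 0.76. Mthfd2, a mitochondrial one-carbon enzyme, had ratios of 1.82 and 2.07. Glycolysis had medians of 0.24 and 0.57, and Pgk1, a glycolytic kinase, ratios of 1.25 and 1.88. Neutrophil transcripts moved as well: in cells with C1q alone, 5 neutrophil genes summed to 2670.2 against 2832 CPM in the normal adjacent library and 1513 against 4593 CPM in the tumour, and their part in the other ratios was not tested.

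The remaining lineages had too few single-lineage cycling cells for gene values, so all cells with the marker are described, most of which carried a second lineage. Of the cycling cells with Trdc, 64.6% and 50.5% also carried Cd8a and Cd3e and 63.3% and 67.0% C1q. Of 10810 genes 191 were higher (1.77%) and 244 lower (2.26%), and of the type 17 list 8 of 10 were lower, with medians of -1.80 and -2.04. Il17a, the defining cytokine of these T cells, had ratios of 0.233 (0.218 to 0.249) and 0.225 (0.211 to 0.240), and Cd163l1, a scavenger receptor of gamma delta T cells, of 0.210 (0.183 to 0.241) and 0.201 (0.174 to 0.231). Blk, a kinase of that lineage, had ratios of 0.249 and 0.213 and Aqp3, a glycerol channel, of 0.194 and 0.187. Summed over cells, those cycling with a Trdc UMI thus held less of the gamma delta programme than non-cycling ones.

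The gamma delta marker needed only 1 UMI of Trdc, and the median depth of its cells was 68553 and 39204 UMIs in cycling against 6218 and 5493 in non-cycling cells. A deeper cell meets such a gate at a lower CPM, and the part of this in the ratios was not tested. The depths also stood apart with Cd79a, at 73745 and 61528 against 6025.5 and 6973 UMIs. In cycling cells with Cd79a (9422 genes, 2.1% higher and 2.31% lower) Ebf1, a B cell transcription factor, had ratios of 0.0913 and 0.131, and Cd79a, which chose the cells, was at 181 against 1393 CPM in the normal adjacent library and 206 against 1118 CPM in the tumour. Cycling cells with Cd209a and Flt3 (9074 genes, 2.08% higher and 0.76% lower) had medians of 68135 and 54426 against 15770 and 14023 UMIs. Cd209a and Flt3, which chose them, had ratios of 0.374 and 0.398 and 0.360 and 0.492, while C1qa had 2.55 and 2.62 and Ccl12, a macrophage chemokine, 3.42 and 3.35. Of the cycling Cd79a cells, 75.8% and 65.2% also carried Cd8a and Cd3e, and 60.6% and 47.8% C1q. Of those with Cd209a and Flt3, 66.7% and 54.7% also carried Cd8a and Cd3e, and 55.6% and 50.9% C1q. Only 5 of 33 and 7 of 46 cycling Cd79a cells had 1 lineage. With Cd209a and Flt3 the counts were 10 of 45 and 13 of 53.

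The stage of the cycle was described by the UMIs of 24 licensing and DNA synthesis genes divided by those of 32 mitotic genes. Over all cycling cells the quotient was 0.853 (0.835 to 0.871) in the normal adjacent library and 0.868 (0.853 to 0.883) in the tumour. Cells with Cd8a and Cd3e alone had 0.852 (0.808 to 0.898) and 0.947 (0.905 to 0.991), and cells with C1q alone 0.720 (0.679 to 0.763) and 0.703 (0.677 to 0.729). By this quotient the C1q cells lay further to the mitotic side than the T cells in each library. Counted by cell, the licensing and synthesis UMIs were the larger sum in 47.5% and 46.0% of these T cells. They were the larger sum in 42.6% and 36.1% of the C1q cells. Non-cycling Ptprc cells had quotients of 0.907 (0.887 to 0.928) and 0.944 (0.924 to 0.965). A value in this range is therefore not particular to cycling cells. Since the rule uses 4 late genes, the quotient describes the cells it picked and not the whole cycle. In cells of 2 or more lineages the rule genes summed to 364 and 456 CPM, against 989 and 1100 CPM in those with 1.

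Between the tissues, cycling cells of a lineage differed in few genes. Of 10356 genes in all cycling cells with Cd8a and Cd3e, 56 were at least 2-fold higher in the tumour (0.541%) and 69 lower (0.666%); with 1 lineage, 56 of 5944 were higher (0.942%) and 63 lower (1.06%). Cxcr6 was at 338 CPM in the normal adjacent library and 158 CPM in the tumour, a ratio of 0.467 (0.397 to 0.547), and in non-cycling cells the ratio was 0.706. Rora, a transcription factor of the retinoid orphan family, was at 191 CPM in the normal adjacent library and 94.3 CPM in the tumour, a ratio of 0.494 (0.399 to 0.610), against 0.767 in non-cycling cells. Hsph1, a heat shock protein, had a ratio of 0.413, and of 0.553 in non-cycling cells. Higher in the tumour, beside Prss2, were Dab2, an endocytic adaptor also made by macrophages, at 28.0 CPM in the normal adjacent library and 82.7 CPM in the tumour, a ratio of 2.96 (2.02 to 4.43), and Il1rn, the interleukin 1 receptor antagonist, at 42.3 CPM in the normal adjacent library and 111 CPM in the tumour, a ratio of 2.62 (1.92 to 3.64). Their ratios in non-cycling cells were 1.16 and 1.23. In the normal adjacent library 1 cell held 25.7% of the Dab2 and 20.8% of the Il1rn UMIs. Dab2 was found in 25 and Il1rn in 21 of the 63 tumour cells. Macrophage transcripts were present in these cells, as given above, and their part in the ratios was not tested. Itgam, Nfkbie, Ybx3 and Uck2 were the other higher genes of the rule with a known symbol.

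In all cycling cells with Cd8a and Cd3e, Hspa1a, an inducible heat shock protein, was at 336 CPM in the normal adjacent library and 92.1 CPM in the tumour, a ratio of 0.274 (0.254 to 0.296), and Gzma, a granzyme, at 511 CPM in the normal adjacent library and 173 CPM in the tumour, a ratio of 0.339 (0.320 to 0.359). In non-cycling cells their ratios were 0.489 and 0.308, so both were lower in the tumour library whether or not cells were cycling. Hspa1a had ratios of 0.411 in cycling cells with C1q, 0.269 with Trdc and 0.395 with Cd79a. Heat shock genes respond to tissue digestion, and the handling of each tissue cannot be told apart from the tissue. Cxcl1, a chemokine for neutrophils, was higher in the tumour in all cycling cells with Cd8a and Cd3e (2.14, against 1.06 in non-cycling cells). With Trdc its ratio was 3.70 against 1.47, and of 9038 genes 0.642% were higher and 0.664% lower. C1q was also carried by 63.9% and 56.9% of the cycling cells with Cd8a and Cd3e and by 63.3% and 67.0% of those with Trdc. The part of these cells in the Cxcl1 values was not tested.

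Cycling C1q cells differed in 81 genes higher (0.774% of 10461) and 46 lower (0.44%), and with 1 lineage in 96 higher (1.34% of 7141) and 69 lower (0.966%). Ccl5 was at 832 CPM in the normal adjacent library and 296 CPM in the tumour, a ratio of 0.356 (0.326 to 0.389), while non-cycling cells with C1q alone had 625 and 669 CPM. Hmox1, the haem-degrading enzyme, was at 189 CPM in the normal adjacent library and 79.3 CPM in the tumour, a ratio of 0.420 (0.351 to 0.503), with 219 and 178 CPM in non-cycling cells. Oasl1, an interferon-induced gene, was at 83.4 CPM in the normal adjacent library and 32.2 CPM in the tumour, a ratio of 0.386 (0.292 to 0.511), with 45.0 and 53.4 CPM in non-cycling cells. In non-cycling cells the ratios of the 3 genes were 1.07, 0.815 and 1.19. Ccl5 and Oasl1 were higher in cycling than in non-cycling cells of the normal adjacent library and lower in those of the tumour. Hmox1 was lower in cycling cells of both libraries. T cell transcripts were also lower in the tumour among cycling C1q cells. The 6 T cell genes summed to 727 CPM in the normal adjacent library and 435 CPM in the tumour, against 402 and 400 CPM in non-cycling cells. Their part in the Ccl5 value was not tested. Mxd1, an antagonist of Myc, had a ratio of 0.486 against 1.35 in non-cycling cells, and Pdcd4, an inhibitor of translation, 0.394 against 0.942. Hilpda, a lipid droplet protein, had a ratio of 0.459, and Cd24a of 0.481. Neutrophil transcripts in cells with C1q alone, given above, were lower in the tumour among cycling cells and higher in the tumour among non-cycling cells. Their part in the ratios of Mxd1, Pdcd4, Hilpda and Cd24a was not tested.

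Higher in cycling tumour macrophages were Tnfsf13b, the B cell survival factor BAFF, at 79.8 CPM in the normal adjacent library and 166 CPM in the tumour, a ratio of 2.08 (1.69 to 2.57), and Ly6a at 46.3 CPM in the normal adjacent library and 119 CPM in the tumour, a ratio of 2.56 (1.96 to 3.39), although 1 cell held 35.4% of the Ly6a UMIs of the normal adjacent cells. In non-cycling cells their ratios were 0.966 and 1.02. The condensation and kinetochore, spindle and glycolysis lists lay slightly above 0 on the log2 scale in the tumour. Log2 ratios were over 0 in 11 of 13 condensation and kinetochore genes (median 0.33), 13 of 14 spindle genes (0.26) and 10 of 11 glycolysis genes (0.24). The median over all genes was 0.02. Aside from 1 kinetochore gene, none of these list genes reached 2-fold.

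Cycling cells with Cd79a (7448 genes, 0.846% higher and 0.738% lower in the tumour) had more Mzb1, a chaperone of plasma cells, at 100.1 CPM in the normal adjacent library and 378 CPM in the tumour, a ratio of 3.77 (3.28 to 4.36), and more Xbp1, the plasma cell transcription factor, at 84.0 CPM in the normal adjacent library and 198 CPM in the tumour, a ratio of 2.36 (2.0 to 2.78). In non-cycling cells the ratios were 4.71 and 3.36, so both kinds of cell held more of these genes in the tumour library. In the normal adjacent library 1 cell held 45.9% of the Mzb1 UMIs. Among cycling cells with Cd209a and Flt3 (7825 genes, 0.741% higher and 0.639% lower) Naaa, a lysosomal lipid hydrolase, was at 66.7 CPM in the normal adjacent library and 179 CPM in the tumour, a ratio of 2.68 (2.29 to 3.15), against 1.31 in non-cycling cells.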

How the data were processed

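Droplet libraries of 1 tumour and 1 normal adjacent tissue were used. Each deposited matrix gives the UMI count of every gene in every barcode, unnormalized; per the file headers it came from Cell Ranger 4.0.0. The submitters' processing notes also name R 4.0.3 and Seurat 3.2.2 and list GRCh38, a human build, though all features are mouse genes; the mouse build is not given in the sources used here, and printed coordinates are those of RefSeq on GRCm38.p6. Barcodes with at least 200 genes and at most 20% mitochondrial UMIs were kept. UMIs were summed per library and set of cells and scaled to CPM. Ratios carry exact conditional binomial intervals, single shares exact (Clopper-Pearson) ones and their differences Newcombe ones, all at 95%. Log2 ratios used 0.5 added UMIs. Cells were thinned to 5000 UMIs to compare depths. Genes past 2-fold that belong to no list were named when, in the set of cells where they were higher, their CPM reached 50 and no cell held over 20% of the UMIs, up to 8 each way by the interval bound nearest 1; genes of mitochondria, ribosomes, haemoglobin, receptor segments and sex chromosomes, and predicted genes, were not named. Of the 268 list genes, some were named whatever their size. The members and gene lists were chosen with earlier results of these data known. Scripts used Python 3.11.15, NumPy 2.4.6, SciPy 1.17.1 and pandas 2.3.3 and were tested on simulated data. Other thresholds, depths, filters and scalings were tried, and their effect is given in the closing section.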

Additional observations from a re-analysis of the deposited data

Results flagged for a closer look

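Cells with at least 5 UMIs of the rule genes but no Ptprc UMI lie outside the cycling immune cells. There were 6 of them in the normal adjacent library and 14 in the tumour, and at least 3 UMIs of 5 epithelial genes were present in 50.0% and 42.9%. Gzmf, a granzyme, moved in opposite directions in the 2 libraries in cycling against non-cycling cells with Cd8a and Cd3e, by log2 ratios of 1.74 in the normal adjacent library and -1.32 in the tumour, with 86.1% and 58.6% of the UMIs of the cycling cells in 1 cell. Il6, an inflammatory cytokine, had log2 ratios of -1.18 and 1.38 in the same cells, from 9 and 34 UMIs in cycling cells. Fn1, fibronectin, had log2 ratios of -2.51 and 1.02 in cells with Cd8a and Cd3e alone, with 6 and 128 UMIs in cycling cells. For each of the 3 genes the difference between libraries was not tested.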

How the results depend on the processing

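No paired analysis was possible because each tissue is 1 library. The difference in the share of Ptprc cells that were cycling kept its sign in all 6 alternatives (1.10 to 2.29 points). The difference in Cd8a with Cd3e among cycling cells (-11.3 points) turned to 5.21 when cells were thinned to 5000 UMIs and cycling cells chosen anew at 3 rule UMIs, called thinning below, and was -3.33 without cells of 2 or more lineages. Without those cells the C1q difference moved from 1.38 to 12.2 points and that of Prss2 from 18.9 to 7.07 (9.61 after thinning). Within lineages, the difference in cycling moved for Cd8a with Cd3e from 3.31 to 6.50 points after thinning and to 6.34 with both changes, for C1q from 0.609 to 3.64 without those cells (1.73 with both), and for Cd79a from 5.00 to 0.895 with both. Counts of genes past 2-fold moved more, cycling against non-cycling first. With the cells' own mean CPM, higher genes were 407 with Cd8a and Cd3e (main 227), 549 with Cd79a (198) and 622 with Trdc (191), and lower genes 89 with C1q (37). With a minimum of 20 UMIs, lower genes were 312, 94, 166, 395 and 374 with Cd8a and Cd3e, C1q, Cd209a and Flt3, Cd79a and Trdc (main 153, 37, 69, 218 and 244), and higher genes 314 with Cd79a. Against non-cycling cells of the cycling cells' depth, higher genes were 119 with Cd209a and Flt3 (189) and 128 with Cd79a, and lower genes 44, 79 and 124 with Cd209a and Flt3, Cd79a and Trdc. Without cells of 2 or more lineages, lower genes with Cd8a and Cd3e were 82, and 86 at that depth; with the mean CPM 393 were higher. With C1q the same gave 24 lower at that depth, and 452 higher and 81 lower with the mean CPM. For tumour against normal adjacent, the mean CPM gave higher genes of 85, 123, 99, 106 and 104 in the order of lineages above (main 56, 81, 58, 63 and 58) and lower genes of 110 with C1q, 100 with Cd79a and 111 with Trdc (46, 55 and 60). A minimum of 20 UMIs gave 140, 207, 193, 179 and 164 higher and 179, 136, 144, 190 and 190 lower (main 69, 46, 50, 55 and 60). Without cells of 2 or more lineages, the mean CPM with C1q gave 178 higher and 99 lower. The minimum of 20 UMIs admits more genes of few UMIs; the cause of the other changes was not tested. Of the other values, 94 shares and counts stayed within 1.5 times or their interval. Among the other single values, 330 crossed the 2-fold limit or 0 (genes), shifted by 0.5 or more on the log2 scale (list medians) or left their interval (shares of cells), and 1540 did not. Single-lineage counts of genes could not be had for Cd209a and Flt3, Cd79a and Trdc, with under 20 cells in a library. Alternatives that join 2 changes, and those on how often cells carried 2 or more lineages, were chosen after seeing the data. Depth limits the rest: single-lineage gene values rest on 40 to 122 cycling cells of 1 library each, and a gene with few UMIs can be set by 1 cell.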
